A study of Phaffia rhodozyma with 6 samples.

Results

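The 8 genes described here carry annotations of enzymes that close and rework the sterol ring in the yeast *Phaffia rhodozyma*: lanosterol synthase, a C-14 reductase, a C-4 methyl sterol oxidase, a C-24 methyltransferase, both annotated C-8 isomerases, and a pair of neighbouring gene models of the C-24 reductase type. They are 8 of 6249 genes in the deposited table, chosen by their gene names (unassigned_gene_ and a number, cited below by the number), and each is listed in the KEGG map of steroid biosynthesis. The comparison is between the S group (3 libraries, S1 to S3, of yeast cells grown with salicylic acid, SA, a plant phenol, at 0.5 mg/L) and the C group (3 libraries, C1 to C3, of yeast cells with no treatment). By the study's methods the wild-type strain AS2.1557 was grown at 22 °C for 96 h in YPD medium in both groups, and the C group received the same amount of water. The time at which cells were taken for RNA is not stated separately in the sources used here.

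Ergosterol is the main sterol of fungal membranes. Squalene is oxidised and folded by lanosterol synthase into lanosterol, the first molecule with the sterol ring, and later enzymes of the endoplasmic reticulum remove methyl groups at C-14 and C-4, move and reduce bonds in the ring, and add and then saturate a methyl branch on the side chain. Carotenoids such as astaxanthin are built from the same prenyl diphosphates that feed squalene synthesis. The comparison therefore concerns a pathway that draws on the same supply as the pigment for which this yeast is grown.

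The values are FPKM, read fragments scaled by gene length and by the mapped fragments of the library, which can be compared between genes because they are already divided by length. Differences are given as S minus C on log2(FPKM + 0.1), each with its standard error (SE) from limma, which fits a linear model to each of the 6113 genes that averaged 0.5 FPKM or more. All 8 genes passed this limit. They were chosen with this same contrast in view, so their values are a description and no p-value is given for them. FPKM is a share of a library, and in a bulk culture a lower level per cell and fewer cells with the transcript cannot be told apart. The study states that its experiments were done in triplicate, and not whether the libraries of a group came from separate cultures.

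Of the 8 genes, 4 were lower and 4 were higher in the S group. All 8 were past the threshold used for all genes (adjusted p under 0.05), which 3.03% of the 6113 tested genes passed as lower and 19.9% as higher. Every member had S and C values that did not overlap, 4 with all S libraries below the C libraries and 4 with all S libraries above them, where 7.48% and 36.1% of all tested genes did so. Nothing is read from these member counts, since the contrast chose the genes. The 4 lower genes were lanosterol synthase, the C-14 reductase, the C-24 methyltransferase and the C-8,7 isomerase. The 4 higher genes were the C-8 isomerase, the C-4 methyl sterol oxidase and both models of the C-24 reductase type.

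**Figure D1:**
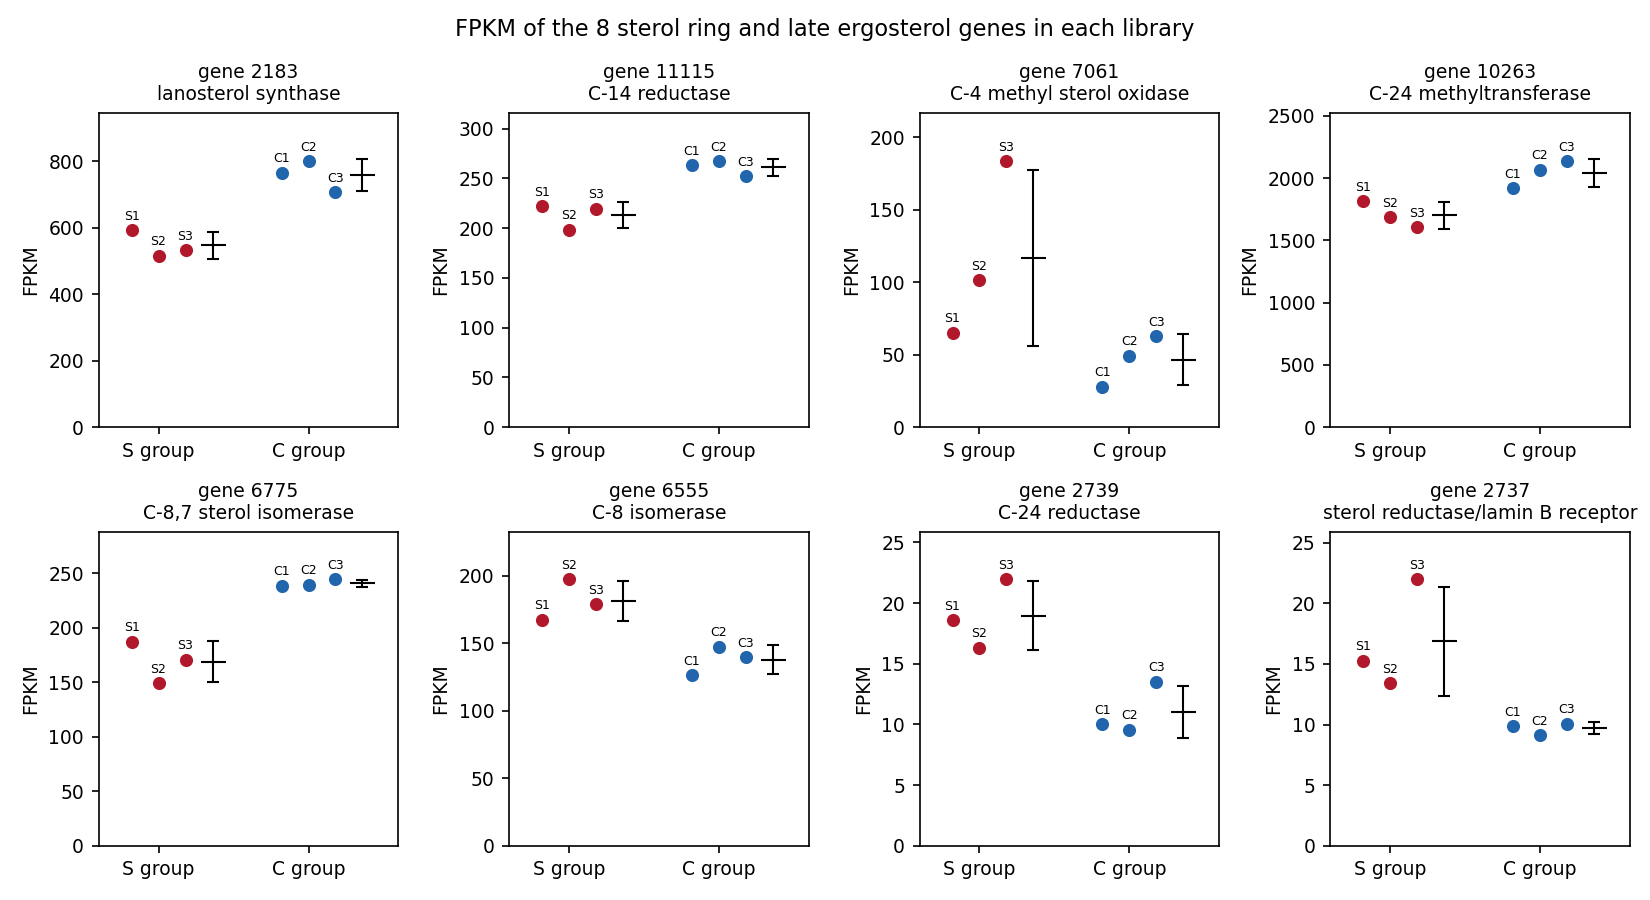
FPKM of the 8 sterol genes, 1 panel per gene, with the S group on the left and the C group on the right. Points are single libraries, the horizontal line is the group mean and the bar is 1 SD of 3 libraries; the S and C points are apart in every panel, with the S points below in genes 2183, 11115, 10263 and 6775 and above in genes 7061, 6555, 2739 and 2737, and S3 stands high in gene 7061.

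Lanosterol synthase, the enzyme that folds oxidosqualene into the ring, is unassigned_gene_2183, a gene of 20 exons at positions 777550 to 781620 of contig LN483142.1 on the minus strand. It stood at 593 (S1), 516 (S2) and 532 FPKM (S3), against 765 (C1), 801 (C2) and 706 FPKM (C3). The highest S library thus lay well under the lowest C library, and the spread within each group was small. The group means were 547 ± 40.9 FPKM in the S group and 758 ± 47.7 FPKM in the C group (SD, n = 3 each), a difference of −0.47 (SE 0.09). In each library the gene ranked between percentiles 96.1 and 97.6 of all genes by level.

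The C-14 reductase, which saturates the ring bond left by removal of the C-14 methyl group and is a target of morpholine fungicides, is unassigned_gene_11115, with 9 exons at positions 1721625 to 1723803 of contig LN483332.1 on the minus strand. It stood at 222 (S1), 198 (S2) and 220 FPKM (S3), against 264 (C1), 268 (C2) and 252 FPKM (C3). The means were 213 ± 13.01 FPKM in the S group and 261 ± 8.11 FPKM in the C group (SD, n = 3 each). The difference was −0.29 (SE 0.09), one of the smaller ones among the 8 genes, and S1 and S3 were nearer to the C group than S2.

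The C-24 methyltransferase puts a methyl group from S-adenosylmethionine on the side chain, a step that fungi have and animals lack. Its gene, unassigned_gene_10263, has 10 exons at positions 348147 to 350148 of contig LN483332.1 on the minus strand. It was the most abundant of the 8 genes, at 1816 (S1), 1685 (S2) and 1606 FPKM (S3), against 1918 (C1), 2069 (C2) and 2139 FPKM (C3). S1 and C1 came closest to each other. The means were 1702 ± 106 FPKM in the S group and 2042 ± 113 FPKM in the C group (SD, n = 3 each), a difference of −0.26 (SE 0.07). This gene alone held 54.7% to 58.9% of the summed FPKM of the 8 genes in the S libraries and 57.1% to 60.0% in the C libraries, ranges that overlapped. The sum of the 8 genes was 2965 ± 108 FPKM in the S group and 3507 ± 127 FPKM in the C group (SD, n = 3 each).

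The table holds a pair of genes described as isomerases for the same step, the shift of the ring bond at C-8, and as deposited their differences had opposite signs. The gene unassigned_gene_6775, described as a C-8,7 sterol isomerase, carries the KEGG ortholog K01824, the emopamil-binding type known from animals and plants, and has 8 exons at positions 1712383 to 1714425 of contig LN483166.1 on the minus strand. It stood at 187 (S1), 149 (S2) and 170 FPKM (S3), against 239 (C1), 240 (C2) and 244 FPKM (C3). The C libraries were nearly level (highest over lowest 1.02), while the S libraries were more spread (highest over lowest 1.26). The means were 169 ± 19.1 FPKM in the S group and 241 ± 3.05 FPKM in the C group (SD, n = 3 each), a difference of −0.52 (SE 0.10), the steepest fall of the 8 genes.

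The gene unassigned_gene_6555, described as a C-8 isomerase, carries the ortholog K09829, the type of the *Saccharomyces cerevisiae* gene ERG2, and has 5 exons at positions 1369643 to 1370803 of contig LN483166.1 on the minus strand. It stood at 167 (S1), 197 (S2) and 179 FPKM (S3), against 126 (C1), 147 (C2) and 140 FPKM (C3). The means were 181.1 ± 14.99 FPKM in the S group and 138 ± 10.6 FPKM in the C group (SD, n = 3 each), a difference of 0.39 (SE 0.10). With each library centred on its median the difference was 0.12 and the groups overlapped, and after quantile normalization it was 0.34 and they did not, so its size depends on the scaling.

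A ratio taken within a library does not depend on the scaling between libraries. Both isomerases are members chosen with the S against C contrast in view, so how their ratio differs between the groups is a description only. Gene 6775 over gene 6555 was 1.12 (S1), 0.756 (S2) and 0.954 (S3), against 1.89 (C1), 1.63 (C2) and 1.75 (C3). Gene 6775 was thus the more abundant isomerase in every C library, while in the S group the order was mixed, with gene 6555 ahead in S2 and S3. The summed FPKM of both isomerases changed less than either, at 355 (S1), 346 (S2) and 349 FPKM (S3), against 365 (C1), 387 (C2) and 384 FPKM (C3).

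The C-4 methyl sterol oxidase, an iron enzyme that starts the removal of the methyl groups at C-4, is annotated in 2 genes with the ortholog K07750. The member, unassigned_gene_7061, has 8 exons at positions 406624 to 408253 of contig LN483167.1 on the plus strand. It stood at 65.1 (S1), 101 (S2) and 184 FPKM (S3), against 28.03 (C1), 49.3 (C2) and 62.7 FPKM (C3). S1 was only just above C3, and S3 stood far above the other S libraries. The means were 117 ± 60.8 FPKM in the S group and 46.7 ± 17.5 FPKM in the C group (SD, n = 3 each), a difference of 1.27 (SE 0.36), which was both the largest and the least precise of the 8 genes. It was 0.87 without S3 and 1.62 without S1. The coefficient of variation between libraries was 52.1% over the S libraries and 37.4% over the C libraries, the widest of the 8 genes in either group.

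The other gene of this ortholog, 4337, which is not a member, was far more abundant and did not pass the test. It stood at 538 (S1), 551 (S2) and 577 FPKM (S3), against 442 (C1), 559 (C2) and 667 FPKM (C3), with groups that overlapped (difference 0.02, SE 0.13, limma adjusted p = 0.934). Gene 7061 over gene 4337 was 0.121 (S1), 0.184 (S2) and 0.318 (S3), against 0.0634 (C1), 0.0882 (C2) and 0.0939 (C3), so the minor gene held a larger part of the pair in each S library than in any C library. The group difference in that ratio rests mainly on the member's own contrast (1.27 for gene 7061, beside 0.02 for gene 4337), so nothing is read from it. The summed FPKM of the pair overlapped between the groups, at 603 to 761 FPKM in the S group and 470 to 730 FPKM in the C group. How alike their sequences are, and so how reads were shared between them, was not analysed here.

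**Figure D2:**
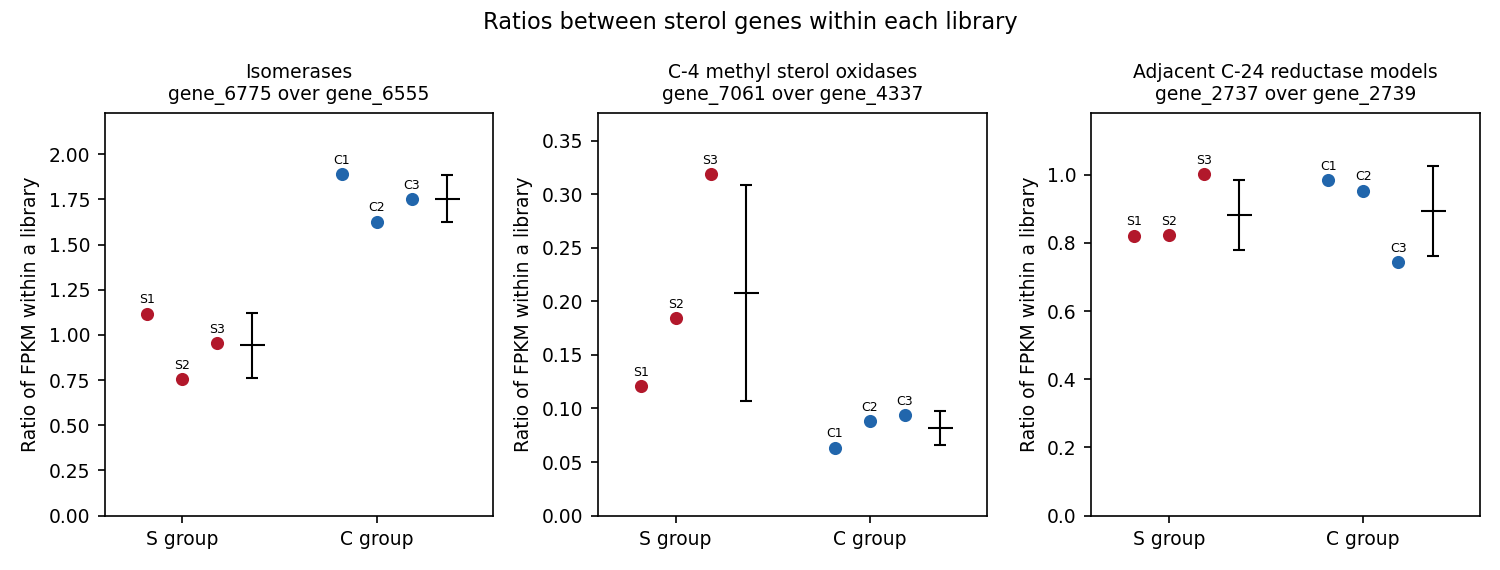
FPKM ratios within a library for the isomerases (gene 6775 over 6555), the C-4 methyl sterol oxidases (gene 7061 over 4337) and the adjacent C-24 reductase models (gene 2737 over 2739), with the S group on the left. All these genes except 4337 are members, chosen with this contrast in view. Points are libraries, lines and bars are means and 1 SD; the isomerase ratio is 0.943 ± 0.181 over the S libraries and 1.75 ± 0.131 over the C libraries, the oxidase ratio is higher in the S group, and the C-24 reductase ratio overlaps.

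The C-24 reductase acts at the end of the pathway and saturates the branch that the methyltransferase made. Genes unassigned_gene_2739 and unassigned_gene_2737 both carry its ortholog, K00223, and lie side by side on the minus strand of contig LN483142.1, at positions 1566898 to 1568627 and 1565555 to 1566760, with 137 bases between them. The gene unassigned_gene_2739, described as a C-24 reductase, has 7 exons and a coding length of 975 bases, and gene 2737, described as a sterol reductase or lamin B receptor, has 8 exons in 441 bases. Together they span 1416 coding bases. They are the only 2 tested genes with the GO term for delta24(24-1) sterol reductase activity. Whether they are separate genes or parts of 1 transcript was not tested. Every count of members given here takes them as 2 genes, which may not be independent of each other.

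Gene 2739 stood at 18.6 (S1), 16.3 (S2) and 21.95 FPKM (S3), against 10.0 (C1), 9.56 (C2) and 13.5 FPKM (C3). Its means were 19.0 ± 2.84 FPKM in the S group and 11.03 ± 2.17 FPKM in the C group (SD, n = 3 each), a difference of 0.78 (SE 0.18). Gene 2737 stood at 15.3 (S1), 13.4 (S2) and 21.98 FPKM (S3), against 9.86 (C1), 9.11 (C2) and 10.1 FPKM (C3). Its means were 16.9 ± 4.50 FPKM in the S group and 9.68 ± 0.50 FPKM in the C group (SD, n = 3 each), a difference of 0.77 (SE 0.19), or 0.56 without S3. Both models were highest in S3 and lowest in S2 among the S libraries, and highest in C3 and lowest in C2 among the C libraries. Across the 6 libraries their r was 0.94, and the ratio of 2737 to 2739 was 0.821 (S1), 0.823 (S2) and 1.001 (S3), against 0.985 (C1), 0.954 (C2) and 0.744 (C3).

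These models were by far the least abundant of the 8 genes. Genes 2739 and 2737 lay at percentiles 25.0 to 40.1 of all genes by level, gene 7061 at 52.6 to 89.7, and the other 5 members at 86.2 or above in each library. The other genes with the ortholog K00223 do not carry a sterol enzyme's description. They are gene 729, described only as "E", and gene 9249, a predicted E3 ubiquitin ligase, with differences of 0.29 (SE 0.16, limma adjusted p = 0.192) and 0.11 (SE 0.13, limma adjusted p = 0.582).

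The change of a gene in this comparison ran with its level, and the direction of the 8 genes did too. Over all 6113 tested genes the median difference was 0.21, and it was −0.07 in the most abundant decile of genes and 0.40 in the least abundant. All 4 lower members were in that most abundant decile, beside whose median their differences of −0.26 to −0.52 are to be read. Gene 6555 was in decile 9 (median 0.05), gene 7061 in decile 8 (0.14), gene 2739 in decile 4 (0.32) and gene 2737 in decile 3 (0.31). Each member lay further out in its own direction than the median of its decile. Nothing is read from this, since the contrast chose the genes. The part of this trend in the members' differences was not tested.

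**Figure D3:**
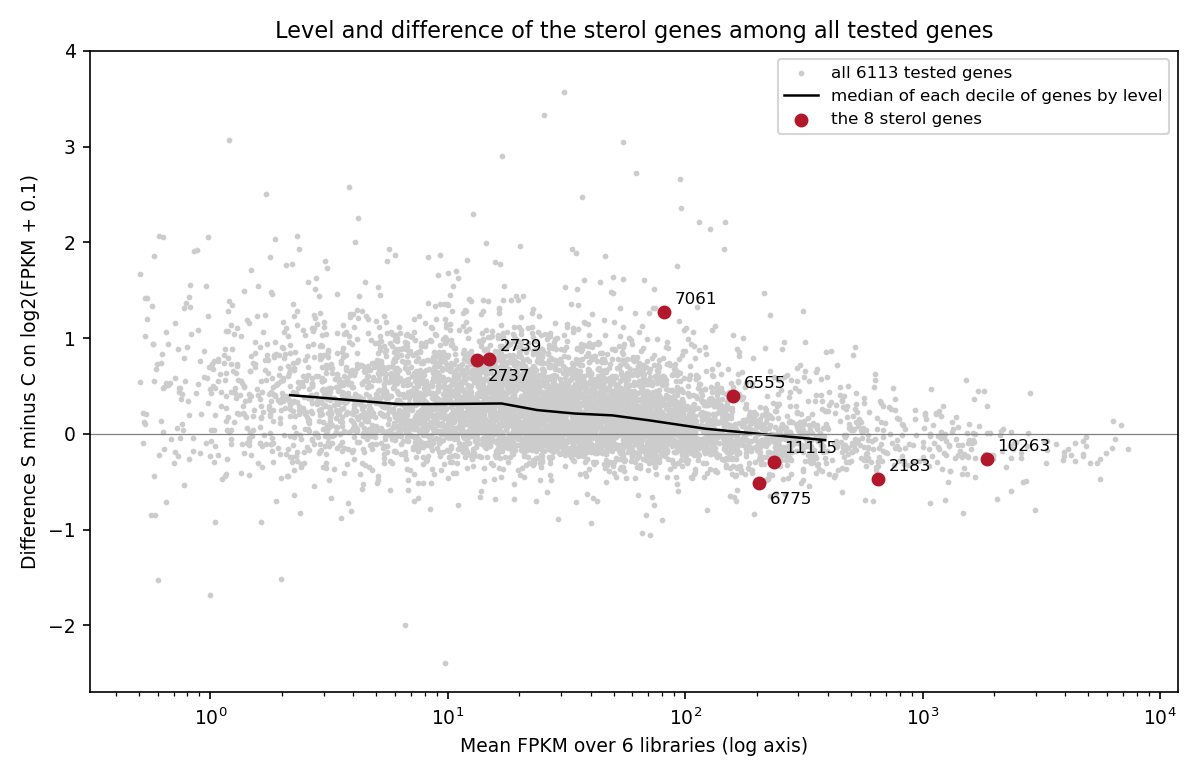
Difference S minus C on log2(FPKM + 0.1) against mean FPKM over 6 libraries (log axis) for the 6113 tested genes in grey and the 8 sterol genes in red, with gene numbers. The black line joins the medians of deciles of genes by level and falls from 0.40 to −0.07; the 4 lower sterol genes lie under its lowest value, at high levels, and the 4 higher ones lie above the line.

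The scaling between libraries moved every difference, as the median tested gene stood at 29.2 to 31.97 FPKM in the S group and 23.6 to 26.4 FPKM in the C group. When every library was centred on its median, the differences of the lower genes were −0.75 for 2183, −0.57 for 11115, −0.54 for 10263 and −0.79 for 6775. Those of the higher genes were then 0.99 for 7061, 0.51 for 2739, 0.49 for 2737 and 0.12 for 6555. With centred libraries 4 members were called lower and 0 higher, where 15.3% and 7.26% of all genes were, and after quantile normalization 3 were lower and 1 higher, where 8.47% and 6.61% were. All 8 genes kept their sign under both. After centring, 4 members had all S libraries below the C libraries and 1, gene 2737, all above, where 29.7% and 14.5% of all genes did, and genes 7061, 6555 and 2739 overlapped. After quantile normalization 4 lay below and 1, gene 6555, above, where 24.2% and 15.9% did, and genes 7061, 2739 and 2737 overlapped. Library S3, which had the most reads (49912270 valid reads, against 35187812 to 42175042 in the others) and the highest mapped share (97.58%), was the highest S library for 3 of the 4 higher genes. Without it 0 members were called higher and 2 lower, where 8.08% and 1.21% of all genes were. Without S2 it was 2 and 2 (8.16% and 1.08% of all genes), and without C2 it was 1 and 2 (11.8% and 1.16%), so calls were fewer over all genes too. The part of read number and mapped share in these values was not tested.

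The rest of the ergosterol pathway was measured through 17 further genes, picked by their KEGG map or their description. By limma's adjusted p, with the limit at 0.05, 1 of them was called higher with SA and 0 lower. Over all tested genes 19.9% and 3.03% were. An unadjusted limma p under 0.05 gave the same 1 and 0 of the 17 genes, where 1981 and 322 of all 6113 tested genes passed. The 17 genes had a median difference of 0.10, beside 0.21 over all tested genes. These medians are not matched for level, with which the difference ran (decile medians 0.40 to −0.07). The same holds for the other list medians below. The count of 1 higher and 0 lower is partly fixed by the choice of the members. Of the 22 genes in the KEGG map, 9 were called, and 8 of them are the members. The other called gene was 10485, which shares the ortholog K01852 with lanosterol synthase but is described as a suppressor of the G2 allele of skp1, a name that is not that of a sterol enzyme. It stood at 45.7 (S1), 49.0 (S2) and 36.7 FPKM (S3), against 21.4 (C1), 21.2 (C2) and 17.6 FPKM (C3) (difference 1.12, SE 0.15, adjusted p = 0.00193).

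Enzymes between the members did not pass the test. Lanosterol 14-alpha-demethylase (gene 5239), the cytochrome P450 that azole fungicides block and the step between lanosterol synthase and the C-14 reductase, stood at 123 (S1), 127 (S2) and 140 FPKM (S3), against 118 (C1), 119 (C2) and 98.7 FPKM (C3) (difference 0.22, SE 0.11, adjusted p = 0.168). Its groups did not overlap as deposited, and the difference was −0.06 with centred libraries. Within a library, lanosterol synthase stood at 3.796 to 4.81 times this gene in the S libraries and 6.47 to 7.16 times in the C libraries. The C-14 reductase stood at 1.56 to 1.80 times it in the S group and 2.23 to 2.55 times in the C group. These ratios do not overlap between the groups, and they rest in part on the members' own contrast.

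Squalene epoxidase (gene 2631), which adds the oxygen that lanosterol synthase needs, stood at 237 (S1), 210 (S2) and 206 FPKM (S3), against 204 (C1), 240 (C2) and 343 FPKM (C3) (difference −0.24, SE 0.16, adjusted p = 0.323). The C-5 desaturase (gene 555), which adds a ring bond late in the pathway, was the second most abundant enzyme here, at 1135 (S1), 1055 (S2) and 1028 FPKM (S3), against 946 (C1), 1137 (C2) and 1410 FPKM (C3) (difference −0.10, SE 0.13, adjusted p = 0.592). In both genes the S values lay within the span of the C values, and C3 was the highest library. The C-22 desaturase (gene 10439), which adds the side-chain bond of ergosterol, was at 320 ± 11.7 FPKM in the S group and 363 ± 37.0 FPKM in the C group (SD, n = 3 each; difference −0.18, SE 0.09, adjusted p = 0.192, and 0.0363 with centred libraries).

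The gene listed in KEGG as squalene synthase and described as farnesyl pyrophosphate synthase (gene 3617) was at 69.1 ± 3.05 FPKM in the S group and 81.7 ± 11.4 FPKM in the C group (SD, n = 3 each). Its difference was −0.23 (SE 0.12, adjusted p = 0.191), and it was called lower with centred libraries (adjusted p = 0.0115), after quantile normalization (0.0325) and without C3 (0.0263). Gene 10755, described as a phytoene or squalene synthetase, was at 0.29 (SE 0.18, adjusted p = 0.268). Enzymes of the C-4 steps after the oxidase were at −0.08 (C-3 dehydrogenase, gene 5637, adjusted p = 0.649, and 0.0451 with centred libraries) and 0.10 (C-3 keto reductase, gene 3773, adjusted p = 0.615). Gene 3305, a C-3 sterol dehydrogenase by description, carries an ortholog other than that of gene 5637, K00789, and was at 0.41 (adjusted p = 0.143). Gene 10577, described as a putative NAD-dependent epimerase, shares the ortholog K07748 with gene 5637 and was at 0.39 (adjusted p = 0.347). Cytochrome P450 reductase (gene 9715), which passes electrons to the P450 steps, was at −0.07 (adjusted p = 0.814). Sterol O-acyltransferase (gene 3723) and a patatin-domain protein (gene 4291), listed for making and cleaving sterol esters, were at 0.10 and 0.13 (adjusted p = 0.643 and 0.443).

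**Figure D4:**
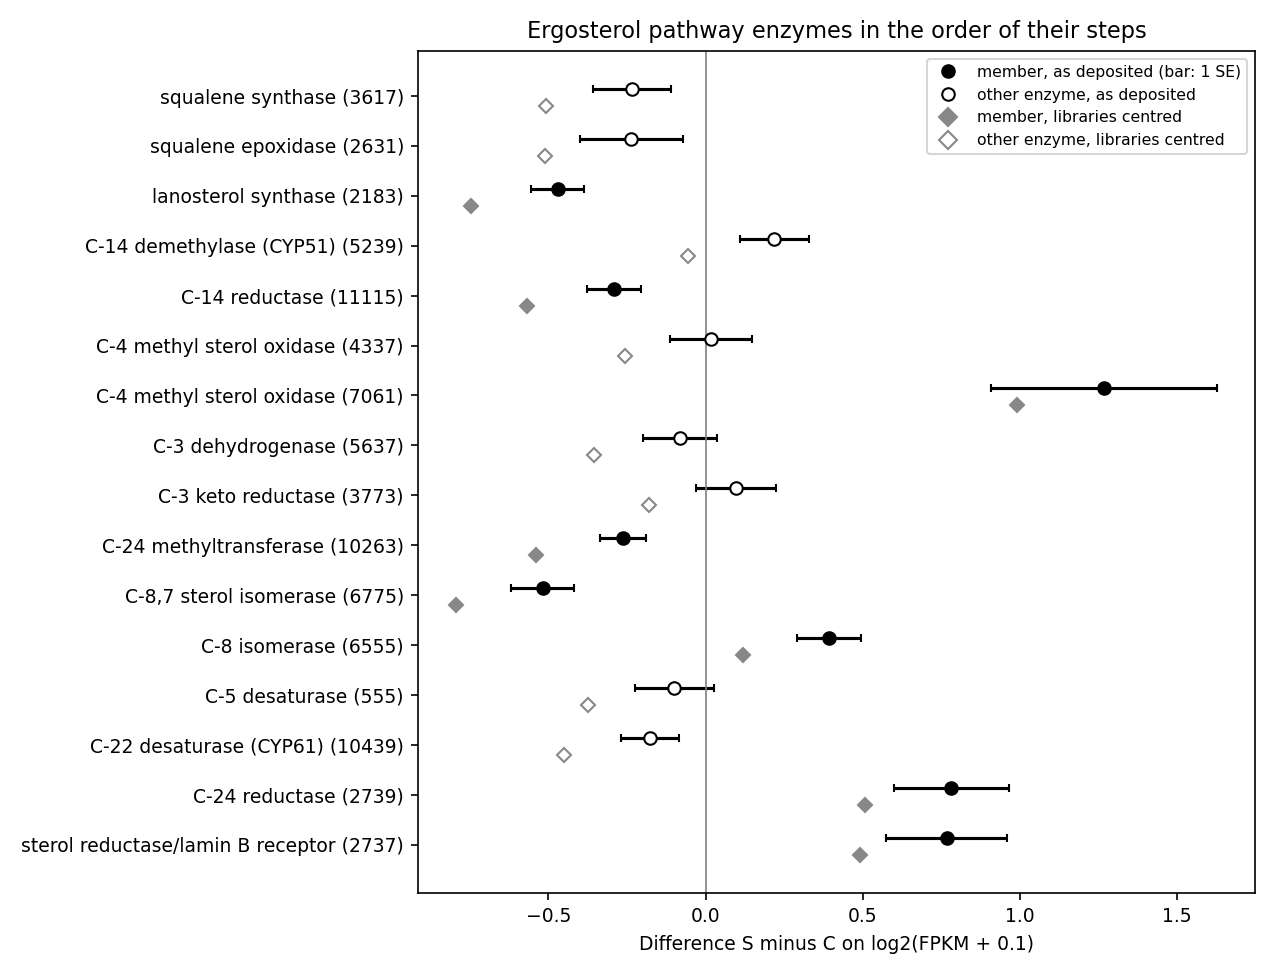
Difference S minus C on log2(FPKM + 0.1) of 16 ergosterol pathway genes, from squalene synthase at the top to the C-24 reductase models at the bottom, in an approximate order of steps. Filled symbols are the 8 members and open ones other enzymes, circles with bars (1 SE) are as deposited and grey diamonds have each library centred on its median; filled circles reach from −0.52 (gene 6775) to 1.27 (gene 7061), and every diamond lies to the left of its circle.

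Upstream, the mevalonate and prenyl diphosphate list held 19 genes, of which 3 were higher and 3 lower by limma (19.9% and 3.03% of all tested genes). The median difference of the list was 0.22, beside 0.21 over all tested genes. The 3 lower genes were hydroxymethylglutaryl-CoA synthase (gene 2377), hydroxymethylglutaryl-CoA reductase (gene 11169), the step at which sterol supply is classically controlled, and geranylgeranyl pyrophosphate synthase (gene 7795), which turns toward carotenoids, with differences of −0.71 (SE 0.13), −0.47 (SE 0.09) and −0.45 (SE 0.09) and adjusted p of 0.00650, 0.00593 and 0.0104. Dehydrodolichyl diphosphate synthetase (gene 11421) was higher by 0.79 (SE 0.17, adjusted p = 0.0115), a call that was lost without S2 (0.0503) or S3 (0.0531). The other 2 higher genes were a tRNA isopentenyl transferase (gene 1615) and a prenyltransferase subunit (gene 1051), whose calls were lost with centred libraries (adjusted p = 0.112 and 0.116) and after quantile normalization (0.219 and 0.288). Without S2 or without S3, 0 genes of this list were called higher.

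Among 7 carotenoid genes, which also serve as the check that these are libraries of an astaxanthin yeast, 3 were higher and 1, gene 7795 of the mevalonate list, was lower. Over all tested genes 19.9% were higher and 3.03% lower. Phytoene-beta carotene synthase (gene 3233), astaxanthin synthase (gene 2447) and phytoene dehydrogenase (gene 3359) were at 81.0, 88.2 and 477 FPKM in the S group and 53.5, 66.7 and 387 FPKM in the C group on average, so all of these defining genes were expressed. Their adjusted p-values were 0.0323, 0.0347 and 0.0390 as deposited, and 0.183, 0.406 and 0.870 with centred libraries. Another gene described as an astaxanthin synthetase, gene 4765, was more abundant than gene 2447, at 263 FPKM in the S group and 221 FPKM in the C group. Its groups overlapped (difference 0.24, SE 0.13, adjusted p = 0.191), and the difference was −0.03 with centred libraries. The call of gene 2447 was lost on leaving out any 1 of the 6 libraries (adjusted p = 0.0514 to 0.144), that of gene 3359 without S1, S2, S3, C2 or C3 (0.0545 to 0.146) and that of gene 3233 without S3, C2 or C3 (0.0762 to 0.0999).

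Of 11 genes for sterol transport, esterification and sensing, 0 were higher and 0 lower in limma, where 19.9% and 3.03% of all tested genes were. At an unadjusted limma p under 0.05, 2 of the 11 genes were higher and 1 lower, where 1981 and 322 of all 6113 tested genes were. The smallest adjusted p belonged to an oxysterol-binding protein (gene 4769), a carrier of sterols between membranes, at 48.2 ± 3.73 FPKM in the S group and 61.3 ± 6.75 FPKM in the C group (SD, n = 3 each; difference −0.34, SE 0.12, adjusted p = 0.0687). It was called lower with centred libraries (0.0103), after quantile normalization (0.0195) and without C3 (0.0213). The intramembrane metalloprotease described as the protease of sterol regulatory element-binding proteins (gene 2935) was at 26.2 ± 1.49 FPKM in the S group and 20.7 ± 1.89 FPKM in the C group (SD, n = 3 each; adjusted p = 0.0836, and 0.674 with centred libraries). The other oxysterol-binding proteins went both ways. Gene 11701 was at 0.30 (adjusted p = 0.124, and 0.862 with centred libraries) and gene 11565 at −0.23 (0.162, and 0.00899 with centred libraries). Gene 11383, at 264 FPKM in the S group and 245 FPKM in the C group, was at 0.11 (adjusted p = 0.536). Gene 4945, at 3.45 and 3.90 FPKM, was at −0.15 (adjusted p = 0.685).

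The members lie on 4 of 70 contigs, and apart from genes 2737 and 2739 no member is next to another. Of the 14 other neighbours, 12 lie on the opposite strand, and 1 was called higher and 0 lower (19.9% and 3.03% of all tested genes). The 14 differences were −0.16 to 0.51 (median 0.18, beside 0.21 over all tested genes). The called neighbour was gene 6557, a subunit of the NADH:ubiquinone oxidoreductase, 277 bases from the C-8 isomerase gene 6555 on the opposite strand (difference 0.51, SE 0.14, adjusted p = 0.0268). Whether the counting used strand is not stated. Of the 8 members, 5 share the GO term for ergosterol biosynthesis, which 16 tested genes carry, and 3 that for the endoplasmic reticulum.

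Across the 6 libraries the members formed 2 sets that follow their direction, as a description that rests mainly on the groups. Among genes 2183, 11115, 10263 and 6775 r was 0.82 to 0.97, and among genes 7061, 6555, 2739 and 2737 it was 0.71 to 0.94. The highest r of the latter set, 0.94, was between the adjacent models 2739 and 2737. Averaged over all 8 members the standardised values nearly cancelled, lying between −0.30 (S2) and 0.19 (S3). Of 4560 annotated genes, the 5 most like that mean were a succinate ligase (gene 10145), a cytoplasm protein (gene 5961), a glycerol-3-phosphate dehydrogenase (gene 3491), a beta-lactamase-like protein (gene 12295) and translation elongation factor 1a (gene 8605), with r of 0.87 to 0.94. With the members split by direction, a split made after seeing their values, the gene most like the higher set was 11501, a glycosyltransferase of family 8 (r = 0.998). The gene most like the lower set was 7273, a predicted Zn-dependent hydrolase (r = 0.995). The 5 genes most like each set had r of 0.995 to 0.998 and 0.992 to 0.995. These are the highest of 4560 genes over 6 libraries and rest mainly on the groups. No link of these genes to the sterol genes is read from them.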

How the data were processed

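RNA of 6 *P. rhodozyma* libraries was sequenced, 3 with SA (S group) and 3 without (C group). Groups were taken from the sample labels. Reads were trimmed by the authors in fastp, aligned in HISAT2 and turned into FPKM in StringTie (no versions stated), and 1 FPKM value per gene and library was deposited. The methods give an assembly of strain CBS6938 and the paper's results text another, Xden1, so the build of the contig positions is not settled. Fold, p and q columns of the authors' own comparison were not used. Valid reads per library, from the study's supplementary table, ran from 38376182 to 49912270 in the S group and from 35187812 to 42175042 in the C group. At the library sizes given, 7.62% to 15.4% of low values were whole reads to within 0.05 (10% by chance), so read counts were not recovered and the depth behind a single value is unknown.

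log2(FPKM + 0.1) of genes averaging 0.5 FPKM or more was fitted with limma 3.58.1 (mean-variance trend) in R 4.3.3, and two-sided p-values received the Benjamini-Hochberg adjustment over all 6113 genes. Because 0.1 is added, differences of low genes are understated. P-values measure the spread between libraries, which may be technical. The fit was tested on simulated data. A true difference of 0.58 in either direction was called in 20 of 50 genes, 1 in 66 of 100 and 2 in 46 of 50. Of 5913 unchanged genes 5 were called. Far fewer genes were changed there than were called in the data. The simulated noise was independent between genes and held no shift of the median gene between the groups, which was 0.21 in the data. These shares, that of the unchanged genes included, therefore need not hold here. A gene that did not pass the test may still differ. Figures were drawn with matplotlib 3.10.9. The members and gene lists were chosen with earlier results of these data known. Named are all members, all further ergosterol genes, up to 4 genes of each other list by adjusted p, neighbours where a result turns on one, and the 5 genes most like the members' mean, and any other gene was named after its values were seen. Lists share genes (3617, 3723, 7795, 1723 and 10755). The alternatives were other pseudocounts, limits on low values, centring, quantile normalization, a replicate block, no trend, and leaving out each library. Sequences and promoter motifs were not analysed here.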

Additional observations from a re-analysis of the deposited data

How the results depend on the processing

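All 8 members kept their direction under each of the 14 alternatives, which is no sign of stability, since they were chosen on this contrast. The members called higher and lower were 0 and 4 with centring, 1 and 3 after quantile normalization, 4 and 2 with the replicate block and 2 and 2 without the mean-variance trend. Leaving out 1 library gave 0 (without S3) to 4 higher and 2 to 3 lower members. Over all 6113 tested genes the counts were 444 higher and 937 lower with centring (7.26% and 15.3%). They were 404 and 518 after quantile normalization (6.61% and 8.47%), 1051 and 151 with the replicate block, and 958 and 80 without the trend. Leaving out 1 library gave 494 to 1341 higher and 66 to 293 lower over all tested genes. Of the 17 further ergosterol genes 3 were lower with centring and 1 after quantile normalization, and 0 to 1 on leaving out 1 library (1 without C3). Of the 19 genes of the mevalonate list, 1 was higher and 5 lower with centring, and 1 and 5 after quantile normalization. In that list 1 was higher with the replicate block, and 0 to 4 on leaving out 1 library. For sterol handling 2 of 11 genes were lower with centring and 2 after quantile normalization, and 0 to 1 on leaving out 1 library. Of the 7 carotenoid genes, 0 were higher with centred libraries, 0 after quantile normalization, 1 with the replicate block and 0 without the trend. On leaving out 1 library 0 to 2 of them were higher. The cause of these moves was not tested, apart from the shift of the median gene that centring removes. Deviations of same-numbered libraries from their group means had r of −0.02, 0.16 and −0.003 for numbers 1, 2 and 3. Of the S libraries only S2 correlated best with its own number. With 3 libraries per group these values show no clear pairing and cannot exclude one. The replicate block took the counts over all genes to 1051 higher and 151 lower. Other pseudocounts and limits on low values changed no member's call. The number of reads behind the low values of genes 2737 and 2739 is unknown.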
